A study of Mus musculus with 20 samples.

Results

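The comparison described here is that of livers given the PPARγ knockdown vector with livers given the control vector, in mice that received vehicle. Its members are the 10 libraries, of 20 in the series, that the labels call PPAR knockdown without BBR (5 mice, shRNA) and control (5 mice, Vec), and all 12342 genes that passed the filter on low counts were compared. All were male Lepr db/db animals, a strain whose leptin receptor does not signal, so that the mice overeat, grow obese and diabetic and store fat in the liver. At 5 weeks of age they received 1 of 2 AAV8 vectors through the tail vein, carrying either shRNAs against Pparg or a non-targeting shRNA. Both groups then received the carboxymethyl cellulose vehicle by gavage for 4 weeks, and tissue was taken after a fast of 6 hours. The other 10 mice received the same vectors together with benzbromarone (BBR, a uricosuric drug, at 25 mg per kg), and their libraries entered the model for its filter and its estimate of the spread, but not the difference between shRNA and Vec. AAV8 reaches hepatocytes above all, the libraries are of whole liver, and no mice without a vector were analysed here. In whole liver, fewer cells of a type and less RNA per cell cannot be told apart.

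PPARγ is a nuclear receptor that binds fatty acids and pairs with RXR on DNA. It is best known as the master regulator of adipocytes. In the liver of lean animals its level is low, and in fatty liver it rises and drives genes for fatty acid uptake, triglyceride synthesis and the coating of lipid droplets. An shRNA is transcribed as a hairpin, from which Dicer cuts a short duplex. The strand that enters the silencing complex, the guide, pairs along its whole length with its target, and short pairing through the bases near its 5′ end can also lower other mRNAs.

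The knockdown vector carried 4 shRNAs. Their target stretches in the Pparg mRNA are shown because they define what the vector was built to silence and because the last part of the results compares them with other mRNAs. Each is written 5′ to 3′ on the sense strand, with the 7 bases that pair with bases 4 to 10 of the guide in capitals. Bases of the guide are counted on the strand as designed, and the 5′ end that Dicer leaves was not measured.

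shRNA1: gcatctccaccTTATTATtct

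shRNA2: ggatgtctcacAATGCCAtca

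shRNA3: ggaaagacaacGGACAAAtca

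shRNA4: ggaagccctttGGTGACTtta

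All 4 stretches of 21 bases lie in the coding sequence of Pparg on the plus strand of chromosome 6 (GRCm38), and each is in all 3 of the complete protein-coding Pparg transcripts of the GENCODE M21 basic set. In the longest of these, which has 8 exons, shRNA1 targets exon 4 (115441512 to 115441532), shRNA3 targets exon 6 (115463265 to 115463285) and shRNA4 targets exon 7 (115473195 to 115473215). The shRNA2 target crosses the junction of exons 5 and 6, from 115451068 to 115463091 with the intron between.

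The targeted gene was lower in every knockdown mouse. Pparg (ENSMUSG00000000440, chromosome 6 from 115360951 to 115490399) stood between 16.4 and 35.9 CPM (counts scaled to the library total) in the 5 Vec mice and between 3.24 and 7.31 CPM in the 5 shRNA mice, a log2 fold change of −2.12 (SE 0.28, edgeR adjusted p = 4.47e-05). Per transcript length, Pparg had 12.7 ± 4.80 FPKM (SD, n = 5) in Vec and 3.14 ± 0.845 FPKM (SD, n = 5) in shRNA livers, and its relatives did not pass the test in edgeR. Ppara, the receptor that drives fatty acid oxidation, had 19.3 ± 12.9 FPKM in Vec and 21.4 ± 3.75 FPKM in shRNA livers (SD, n = 5 each). Ppard, the third PPAR, had 1.29 ± 0.276 and 1.34 ± 0.143 FPKM (SD, n = 5 each). The PPARα gene was therefore at a higher FPKM level than Pparg in shRNA livers, whereas in Vec livers the ranges of the 2 genes overlapped. Of 18 genes of receptors, RXR partners and coregulators, Pparg and Cebpa (which encodes the liver-enriched factor C/EBPα, log2 fold change −0.45, edgeR adjusted p = 0.0083) were called lower and the coactivator gene Ncoa1 was called higher (log2 fold change 0.46, edgeR adjusted p = 0.0058).

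Far more genes than the target differed between the 2 vectors. At an adjusted p under 0.05, 652 genes were higher in shRNA livers (5.28% of those tested) and 976 were lower (7.91%), which is 13.2% in all. At an unadjusted p under 0.05 the numbers were 1562 and 1948. Most differences were small: 110 of the genes called higher and 111 of those called lower had a log2 fold change of at least 1 in size, and the median among called genes was 0.51 for higher and −0.51 for lower genes. The median over all genes tested was −0.01. The CPM values of the 2 groups did not overlap in 8.96% of all genes. Total counts ran from 17825543 to 21708075 in Vec and from 17432903 to 24823023 in shRNA libraries. The shRNA mice resembled each other more than the Vec mice did: the mean correlation of log2 CPM with the other mice of the group was 0.988 to 0.990 in shRNA and 0.977 to 0.983 in Vec livers. The number of genes called fell from 1628 to 1015 (384 higher, 631 lower) without shRNA replicate 4 and rose to 2284 without Vec replicate 4.

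**Figure D1:**
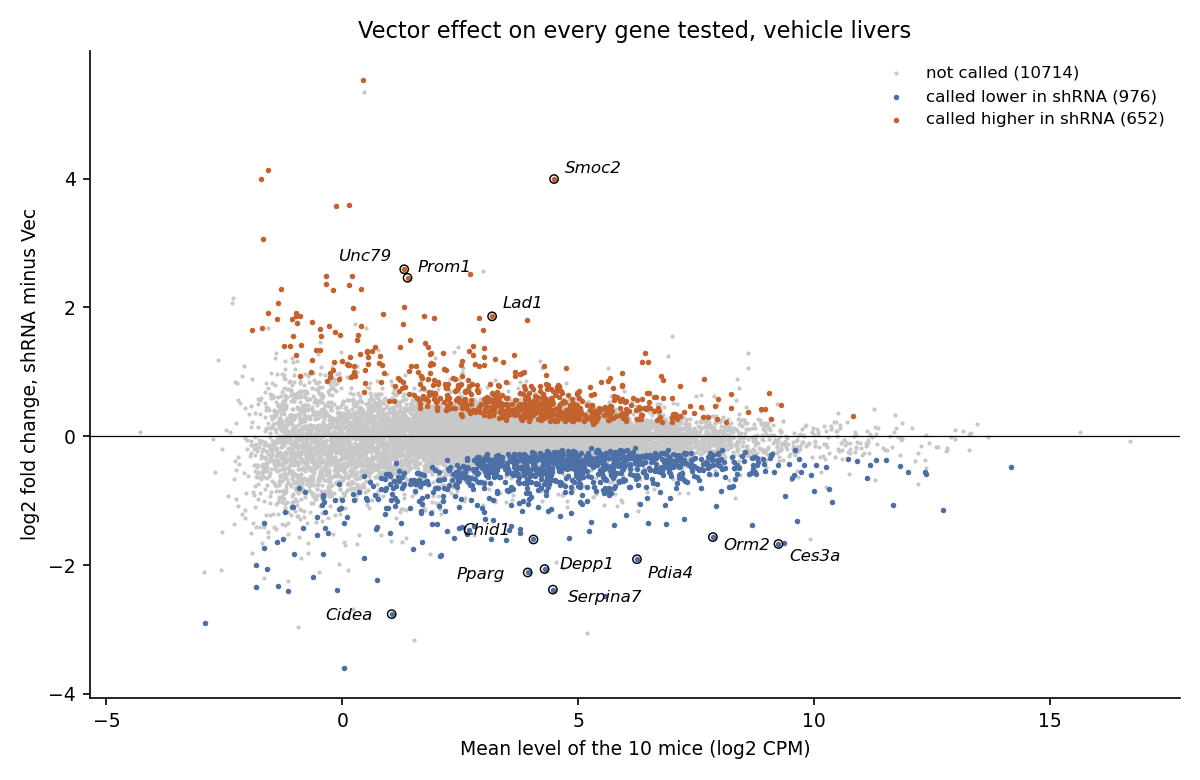
Every gene tested is a point, with its mean level over the 10 mice (log2 CPM) on the x axis and its log2 fold change (shRNA minus Vec) on the y axis; blue points were called lower (976) and orange points higher (652) at an adjusted p under 0.05. Smoc2 stands highest among the circled genes, at 3.99, and Cidea lowest, at −2.76, with the targeted Pparg at −2.12.

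In the BBR-treated mice, whose values are not part of the difference between shRNA and Vec but of the shared estimate of the spread, most of the called genes had the same sign. With the 10 vehicle libraries alone in the fit, 1149 genes were called (479 higher, 670 lower). Of the 976 genes called lower, 814 (83.4%) had a negative value when shRNA+BBR was compared with Vec+BBR, against 50.6% of all genes, and their median there was −0.21. Of the 652 called higher, 519 (79.6%) had a positive one, against 49.4% of all genes, with a median of 0.16. In the BBR-treated mice 4.82% of genes were called lower and 3.31% higher. The genes called lower with both treatments numbered 256, which is 26.2% of those called lower here and 43.0% of those called lower there. Those called higher in both numbered 107 (16.4% and 26.2%), and 8 genes were called in opposite directions. The difference between the 2 vector effects, tested for each gene as an interaction, passed in 18 genes (0.146%), although 2281 genes had an unadjusted p under 0.05 for it and DESeq2 called 330.

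The largest increase was in a matrix protein gene. Smoc2 (ENSMUSG00000023886, chromosome 17 from 14279506 to 14404790), which encodes a secreted calcium-binding protein of the extracellular matrix, was at 3.1, 2.6, 2.7, 1.9 and 2.9 CPM in the Vec mice and at 45.9, 31.6, 36.4, 59.0 and 38.5 CPM in the shRNA mice. Its groups stood far apart, with a log2 fold change of 3.99 (SE 0.29, edgeR adjusted p = 7.95e-08), the largest among genes that met the naming criteria. In the BBR-treated mice it was 2.08 (edgeR adjusted p = 0.00018), and the 2 effects differed by −1.92 (log2, interaction, edgeR adjusted p = 0.0473). Prom1 (chromosome 5 from 43993620 to 44102032), which encodes the membrane glycoprotein prominin-1 known from progenitor and ductal cells, lay between 0.3 and 1.5 CPM in Vec and between 3.5 and 5.7 CPM in shRNA mice (log2 fold change 2.46, edgeR adjusted p = 0.000125). Lad1, which encodes the basement membrane protein ladinin-1, lay between 1.9 and 4.6 CPM and between 9.9 and 17.5 CPM (log2 fold change 1.86, edgeR adjusted p = 0.000193), with a like change of 2.06 in the BBR-treated mice. Myom3, which encodes the sarcomere protein myomesin-3, had log2 fold changes of 1.83 and 1.81 in vehicle and BBR-treated mice.

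The other genes with the largest increases have varied roles. Unc79, part of a sodium leak channel complex, had a log2 fold change of 2.59, and Defb1, a secreted antimicrobial peptide gene, one of 1.87. Slc51b, which encodes a subunit of the basolateral bile acid transporter, lay between 0.5 and 2.1 CPM in Vec and between 2.4 and 5.4 CPM in shRNA mice (log2 fold change 1.75, edgeR adjusted p = 0.0146). Cish, a feedback inhibitor of STAT5 signalling, rose from 2.6 to 7.1 CPM in Vec to 10.4 to 12.7 CPM in shRNA mice (log2 fold change 1.38, edgeR adjusted p = 0.0061). In the BBR-treated mice Cish had a log2 fold change of −0.11 (with edgeR adjusted p = 0.857), and the difference between the 2 effects did not pass the test (edgeR adjusted p = 0.107). Tstd1 (1.65), Bco1, which encodes the enzyme that splits β-carotene (1.39), Adamts7, a metalloproteinase gene (1.29), and Gm10639 (1.83) complete the 12. Gm10639 lies on chromosome 9 from base 78289923, and no function is given for it here. All 12 were called under every alternative in which they were tested.

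Among the largest decreases, Serpina7 (chromosome X from 139079257 to 139085236), which encodes thyroxine-binding globulin, was at 26.7, 23.5, 65.6, 18.96 and 50.5 CPM in Vec and at 10.4, 8.0, 7.3, 5.7 and 4.3 CPM in shRNA mice (log2 fold change −2.38, SE 0.41, edgeR adjusted p = 0.000538). Pdia4 (chromosome 6 from 47796141 to 47813430), which encodes a protein disulfide isomerase of the endoplasmic reticulum, was at 133, 147, 110, 95.4 and 115 CPM in Vec and at 36.5, 37.9, 32.05, 21.6 and 31.9 CPM in shRNA mice. Its lowest Vec mouse stood well above its highest shRNA mouse (log2 fold change −1.91, SE 0.17, edgeR adjusted p = 9.71e-07), and in the BBR-treated mice the log2 fold change was −1.22. Chid1 (chromosome 7 from 141493136 to 141539857), which encodes a chitinase-domain protein, was nearly constant within each group, at 24.99 ± 0.870 CPM in Vec and 8.22 ± 1.33 CPM in shRNA livers (SD, n = 5 each), a log2 fold change of −1.60 (with edgeR adjusted p = 2.95e-07).

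Of the remaining large decreases, Ces3a, a liver carboxylesterase gene, went from 926 ± 290 to 290 ± 100 CPM (SD, n = 5 each; log2 fold change −1.67, edgeR adjusted p = 0.000248). Orm2, which encodes the acute phase protein orosomucoid 2, went from 347 ± 114 to 117 ± 29.4 CPM (SD, n = 5 each; log2 fold change −1.57, edgeR adjusted p = 0.000152). Depp1, a FOXO-responsive gene induced by fasting, had a log2 fold change of −2.06 (with edgeR adjusted p = 0.0070) and one of −2.10 in the BBR-treated mice. Bcl6, a transcriptional repressor that STAT5 lowers, had one of −1.59 (edgeR adjusted p = 0.0133) and −0.16 in the BBR-treated mice (edgeR adjusted p = 0.847). Mup21, a major urinary protein gene, had a value of −1.84 (edgeR adjusted p = 8.39e-05) but had −0.12 in the BBR-treated mice, and this difference passed the interaction test (1.73, edgeR adjusted p = 0.0473). Fitm1 (−1.58), Pla2g12a, a secreted phospholipase A2 gene (−1.499), and Syt3, a synaptotagmin gene (−1.47), complete the 12 together with Pparg. Mup21, Ces3a and Orm2 belong to families of close copies, so reads shared within a family make their values uncertain.

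**Figure D2:**
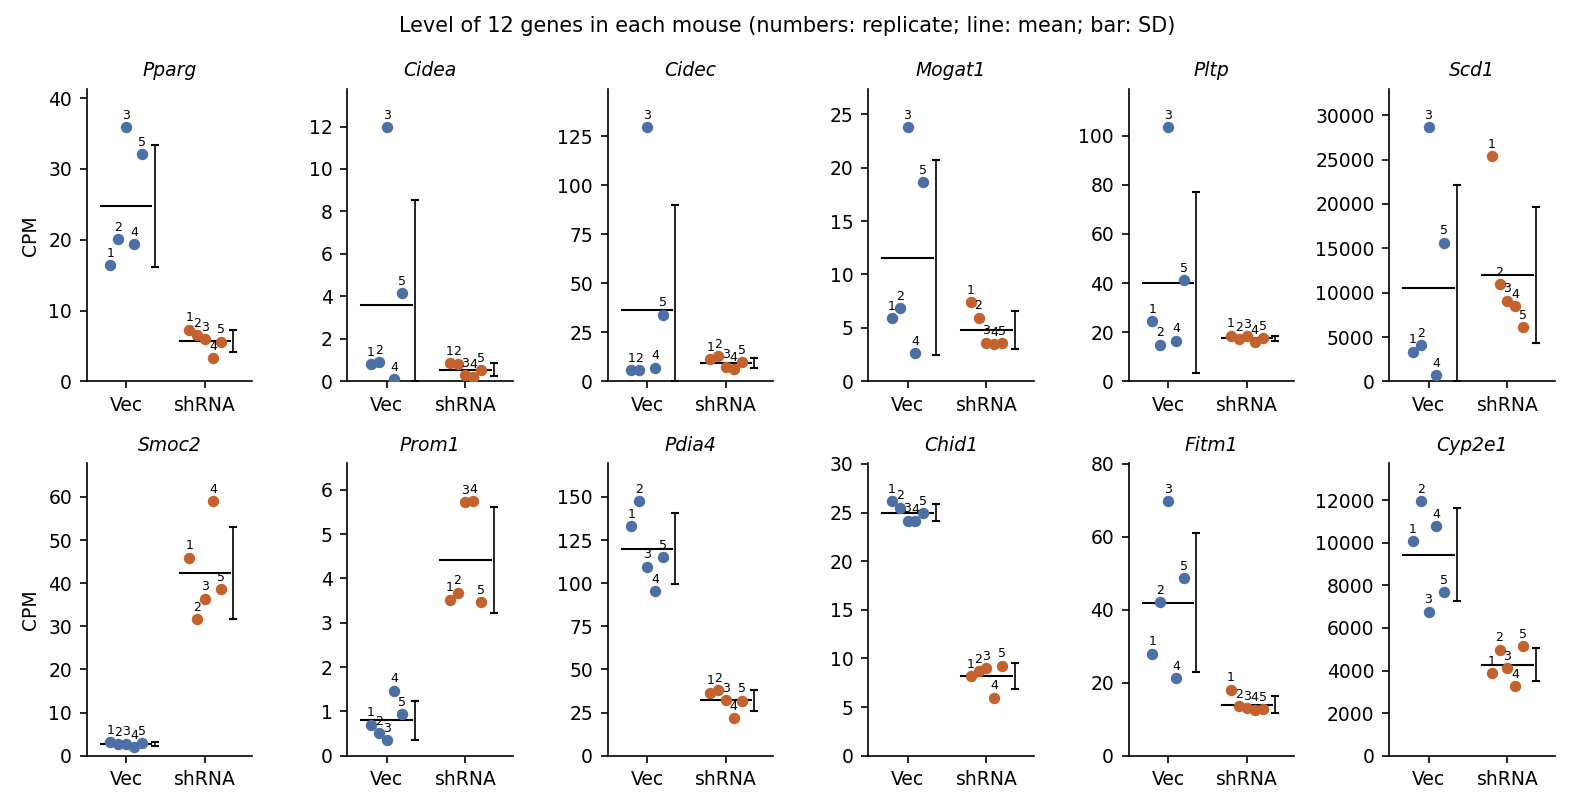
Each point is 1 mouse (number: replicate), with CPM on the y axis from 0 and Vec in blue and shRNA in orange; lines are means and bars are SD (n = 5), not drawn under 0. In Cidea, Cidec, Mogat1, Pltp and Scd1 the highest Vec mice are replicates 3 and 5, as they also are in Pparg and Fitm1. In Pparg, Smoc2, Prom1, Pdia4, Chid1, Fitm1 and Cyp2e1 the groups do not overlap.

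Genes known to be driven by PPARγ in fatty liver moved unevenly. Of 24 such genes tested, 5 were called lower (Cidea, Mogat1, Pltp, Acaa1b and Lipe) and 2 higher (Plin5 and Cd300lg), beside 7.91% and 5.28% of all genes. The median log2 fold change was −0.29, against −0.01 over all genes. Cidea, which promotes the fusion of lipid droplets, was at 0.80, 0.90, 11.97, 0.10 and 4.14 CPM in the Vec mice and at 0.87, 0.84, 0.28, 0.22 and 0.54 CPM in the shRNA mice. Vec replicates 3 and 5 stood far above all other mice, whereas the other 3 Vec mice lay close to the shRNA mice. The log2 fold change of −2.76 (edgeR adjusted p = 0.0304) became −1.52 without Vec replicate 3 (edgeR adjusted p = 0.211) and −0.12 without both (edgeR adjusted p = 0.951). Mogat1, an enzyme of triglyceride synthesis from monoacylglycerol, was at 23.8 and 18.6 CPM in the same 2 Vec mice, at 2.64 to 6.88 CPM in the other 3 and at 3.46 to 7.40 CPM in the shRNA mice. Pltp, which encodes phospholipid transfer protein, was at 103 and 41.3 CPM in them, at 14.9 to 24.6 CPM in the other 3 and at 16.1 to 18.6 CPM in the shRNA mice. The calls of Mogat1 (log2 fold change −1.28) and Pltp (−1.19) were lost without these 2 mice, with edgeR adjusted p-values of 0.884 and 0.85 and log2 fold changes of −0.09 and −0.08.

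Several lipid genes that were not called also had their 2 highest Vec values in these mice. Cidec, the paralog of Cidea, was at 130 and 34.1 CPM in Vec replicates 3 and 5, at 5.59 to 6.95 CPM in the other 3 Vec mice and at 6.18 to 12.7 CPM in the shRNA mice (log2 fold change −1.95, edgeR adjusted p = 0.0520). Without these 2 mice its log2 fold change was 0.63. Plin2, the perilipin that coats most liver droplets, had log2 fold changes of −0.47 with all mice (edgeR adjusted p = 0.190) and 0.15 without them. Scd1, the Δ9 desaturase, ranged from 707 to 28660 CPM in Vec and from 6080 to 25400 CPM in shRNA mice (log2 fold change 0.19, edgeR adjusted p = 0.861), and Fasn, fatty acid synthase, ranged from 127 to 1820 and from 379 to 1100 CPM (−0.38, edgeR adjusted p = 0.692). Without Vec replicates 3 and 5 both were called higher in shRNA livers, Scd1 with a log2 fold change of 2.15 (with edgeR adjusted p = 0.0057) and Fasn with 1.42 (edgeR adjusted p = 0.0403). These 2 mice were left out after their values were seen, and they had the highest Vec values of both genes. Leaving them out raises the log2 fold change by itself, so these calls are no independent result. Hilpda, a hypoxia-inducible droplet protein, had −0.20 (edgeR adjusted p = 0.653), Fabp4, a fatty acid binding protein, 0.13 (edgeR adjusted p = 0.762), Cd36, a fatty acid transporter, 0.23 (edgeR adjusted p = 0.137), Plin4, a droplet coat protein, 0.30 (edgeR adjusted p = 0.634), and Ppara 0.06 (edgeR adjusted p = 0.932). Without Vec replicates 3 and 5, Plin4 (1.27, edgeR adjusted p = 0.018) and Cd36 (0.43, edgeR adjusted p = 0.0026) were called higher, whereas Ppara, highest in Vec replicate 4, stayed at 0.03. The same limit holds for Plin4 and Cd36, whose 2 highest Vec values were also in these mice. Without Vec replicates 3 and 5, the 24 genes counted 3 called higher and 1 lower with a median of −0.02, and without shRNA replicate 4 they counted 1 higher and none lower with a median of −0.26.

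Other droplet genes fell without overlap between the groups, a separation that 8.96% of all genes had in either direction. Of 19 lipid droplet genes, 6 were called lower and 1 higher (median −0.28), beside 7.91% and 5.28% of all genes. Without Vec replicates 3 and 5 the count was 5 lower and 3 higher with a median of 0.05. Fitm1, which encodes a protein of the endoplasmic reticulum that helps droplets bud, was at 27.9, 42.1, 69.7, 21.2 and 48.7 CPM in Vec and at 18.05, 13.6, 13.01, 12.6 and 12.7 CPM in shRNA mice. The groups did not overlap (log2 fold change −1.58, edgeR adjusted p = 0.000151), and shRNA replicate 1 was the highest of its group. Abhd5, the coactivator of the lipase ATGL, lay between 30.1 and 33.4 CPM in Vec and between 21.9 and 24.2 CPM in shRNA mice (log2 fold change −0.45, edgeR adjusted p = 0.000759). Cideb (−0.40), Ldah (−0.39) and Bscl2, which encodes seipin (−0.33), also fell without overlap between the groups. Plin5, which ties droplets to mitochondria, was higher (0.62, edgeR adjusted p = 0.0094), and also in the BBR-treated mice (0.90, edgeR adjusted p = 0.00126).

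Steps of fat metabolism around the droplet were called lower in small numbers, beside 7.91% of all genes. Of 20 genes for fatty acid uptake and activation, 2 fell, Slc27a4, a fatty acid transport protein (−0.63), and Fabp1, the liver fatty acid binding protein (−1.02, edgeR adjusted p = 0.0485, and 0.472 without Vec replicates 3 and 5). Without these 2 mice Slc27a4 was at −0.38 (edgeR adjusted p = 0.060), and the list counted 1 higher and none lower with a median of 0.01. Of 18 triglyceride synthesis genes, 3 fell. Aqp9, the glycerol channel, lay between 342 and 484 CPM in Vec and between 205 and 256 CPM in shRNA mice (−0.78, edgeR adjusted p = 4.07e-05), beside Mogat1 and Mogat2 (−1.40). Of 24 genes of de novo lipogenesis, 3 fell, the elongase genes Elovl5 (−1.38), Elovl3 (−1.09) and Elovl1 (−0.54, edgeR adjusted p = 0.000102). Without Vec replicates 3 and 5 this list counted 6 genes higher and 1 lower, and its median moved from −0.18 to 0.35. That shift is set in part by the choice of these mice, made after their values were seen. Of 23 lipoprotein genes, 6 fell, among them Angptl4, an inhibitor of lipoprotein lipase (−0.53, edgeR adjusted p = 0.0010), and Apoe (−0.47), and 3 were called lower without Vec replicates 3 and 5.

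Fatty acid oxidation and the typical targets of PPARα are read here beside the 7.91% of all genes called lower and 5.28% called higher. Of 29 β-oxidation genes, 8 fell and 1 rose (median −0.18), and the clearest was Acadm, medium-chain acyl-CoA dehydrogenase, at 433 to 516 CPM in Vec and 328 to 388 CPM in shRNA mice (−0.45, edgeR adjusted p = 0.00123). Of 28 PPARα target genes, 9 fell and 1 rose (median −0.23). Vnn1, a pantetheinase, lay between 55.7 and 136 CPM in Vec and between 27.8 and 44.5 CPM in shRNA mice (−1.23, edgeR adjusted p = 0.000311). The Cyp4a fatty acid hydroxylases split: Cyp4a12a (−1.65) and Cyp4a32 (−0.53) fell and Cyp4a31 rose (1.09), and since these are close copies, their values are uncertain. Of 46 tested genes from the study's list of PPAR target genes, which does not name a single PPAR, 9 fell and none rose (median −0.34), whereas without Vec replicates 3 and 5 the count was 2 lower and 4 higher with a median of −0.06. Without the same 2 mice the β-oxidation list counted 3 higher and 3 lower, and the PPARα list 4 higher and 7 lower. Without shRNA replicate 4 the counts of lower genes were 3 for β-oxidation, 6 for PPARα targets, 2 for lipoprotein genes and 2 for the study's list.

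**Figure D3:**
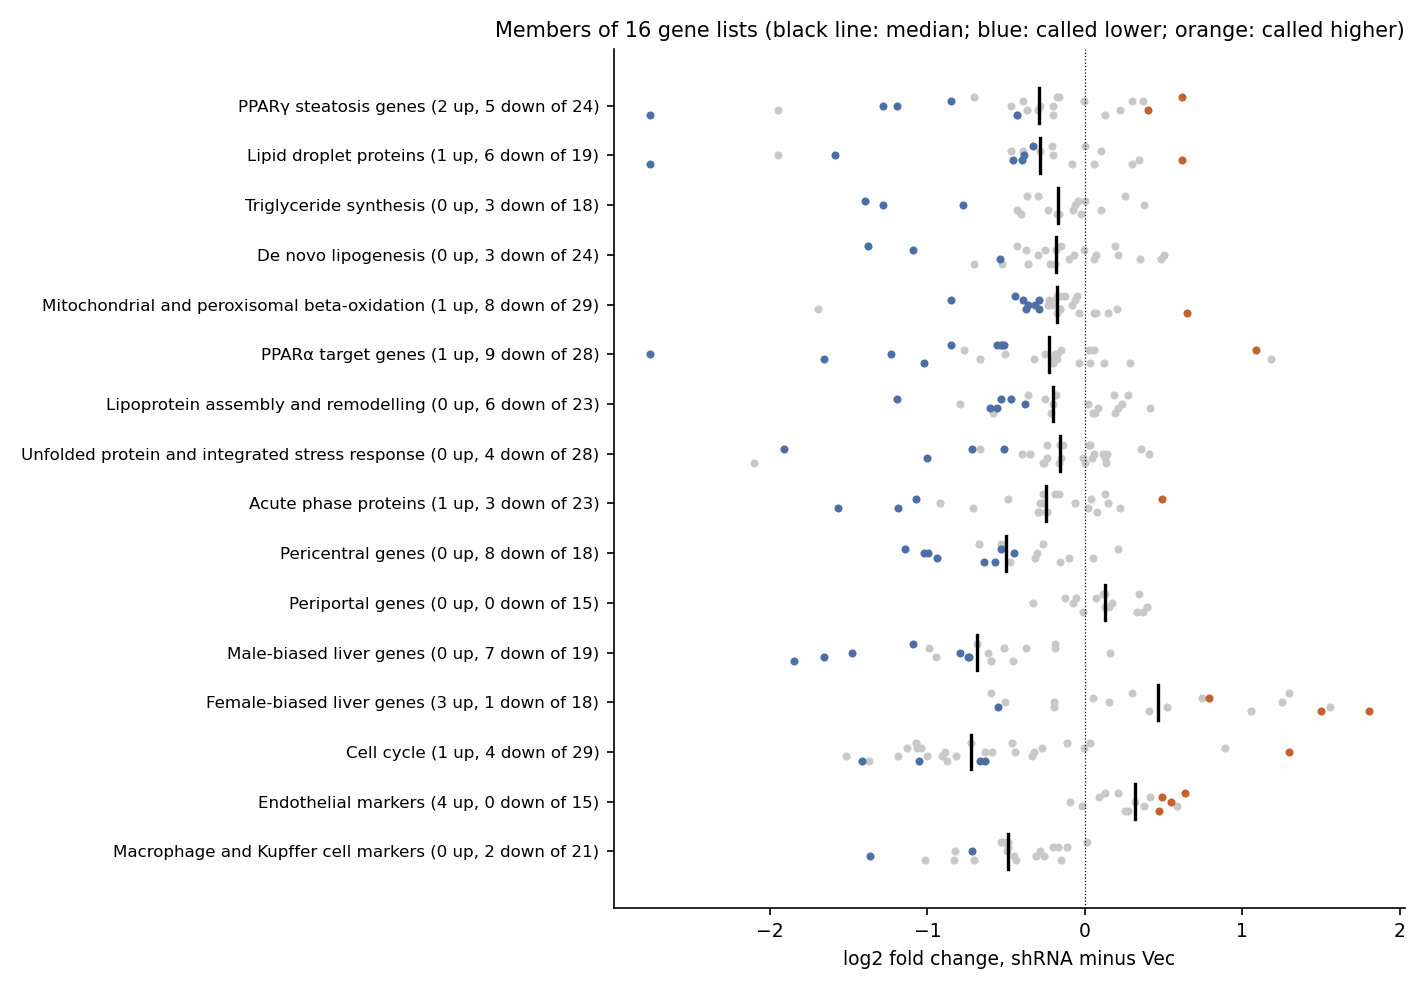
Each point is a gene of 1 of 16 lists, with its log2 fold change (shRNA minus Vec) on the x axis; blue points were called lower, orange points higher, grey points were not called, and black lines are list medians. The lowest medians are those of the cell cycle (−0.72), male-biased (−0.68) and pericentral (−0.50) lists, and the highest is that of the female-biased list (0.46).

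Pericentral genes, which mark the hepatocytes around the central vein and depend on WNT signalling there, were called in 1 direction. Of 18 tested, 8 were called lower and none higher (median −0.50), against 7.91% of all genes called lower, and 2 had positive values. Cyp2e1, the ethanol-oxidising cytochrome P450, was at 10070, 11950, 6760, 10790 and 7674 CPM in Vec and at 3887, 4981, 4110, 3278 and 5155 CPM in shRNA mice (−1.14, edgeR adjusted p = 0.000195). Glul, glutamine synthetase, lay between 753 and 1087 CPM in Vec and between 510 and 703 CPM in shRNA mice (−0.64, edgeR adjusted p = 0.000669), without overlap. Rhbg, an ammonium transporter (−1.02), Notum, a secreted WNT inhibitor (−0.94), and Tbx3, a transcription factor (−0.53), fell in the same way, and Lgr5, a WNT coreceptor, Lect2 and Aldh3a2 fell with overlapping groups. Without Vec replicates 3 and 5 the count was 11 lower and none higher, and without shRNA replicate 4 it was 5 lower. In the BBR-treated mice the median of this list was 0.31 and 1 gene was called, which was lower. Of the 8 genes only Tbx3 passed the interaction test (0.86, edgeR adjusted p = 0.0292). None of 15 periportal genes was called in either direction (median 0.13).

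Growth hormone and STAT5 set the sex-biased expression of many liver genes. Of 19 male-biased genes, 7 fell and none rose (median −0.68), against 7.91% and 5.28% of all genes. Serpina1e lay between 37.2 and 46.1 CPM in Vec and between 21.8 and 30.2 CPM in shRNA mice (−0.73, edgeR adjusted p = 8.39e-05), and Gstp1, a glutathione transferase, between 289 and 501 and between 188 and 261 CPM (−0.79). Cyp4a12a, Cyp4a12b, Elovl3, C6 and Mup21 were the others. Of 18 female-biased genes, 3 rose and 1 fell (median 0.46), with 5 negative values in all, the called genes being A1bg (1.80), Cyp3a44 (1.501), Cyp17a1 (0.79) and, lower, Prlr, the prolactin receptor (−0.55). Of these, A1bg was at 24.4 CPM in Vec replicate 4 and at 1.18 to 3.41 CPM in the other Vec mice, against 17.0 to 35.1 CPM in the shRNA mice. Cyp4a12a was at 313 CPM in Vec replicate 4 and at 1049 to 1276 CPM in the others, against 233 to 402 CPM in the shRNA mice. In both genes this Vec mouse lay within the range of the shRNA mice.

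Secretory and acute phase genes are given beside the same shares of all genes, 7.91% lower and 5.28% higher. Of 28 genes of the unfolded protein and integrated stress response, 4 fell and none rose, and all 4 encode chaperones or folding factors of the endoplasmic reticulum. Beside Pdia4 these were Dnajb11 (40.6 to 59.9 CPM in Vec, 26.0 to 34.6 CPM in shRNA mice, log2 fold change −0.72, edgeR adjusted p = 9.43e-05), Sdf2l1 (−1.005, edgeR adjusted p = 0.0097) and Calr, calreticulin (−0.51, edgeR adjusted p = 0.0120). Sdf2l1 and Dnajb11 were also called lower in the BBR-treated mice, at −1.25 and −0.55. Of 23 acute phase genes, 3 fell and 1 rose. Hp, haptoglobin, lay between 3531 and 5592 CPM in Vec and between 1901 and 2734 CPM in shRNA mice (−1.07, edgeR adjusted p = 0.000163), and Il1rn, the interleukin 1 receptor antagonist, between 3.85 and 6.41 and between 1.71 and 2.90 CPM (−1.19, edgeR adjusted p = 0.000229). Of 27 interferon response genes none was called (median −0.27, and 0.07 without Vec replicates 3 and 5).

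Glucose, drug, bile acid, NRF2 and clock genes were called in both directions, beside 5.28% of all genes higher and 7.91% lower. Of 25 genes of glucose metabolism, 4 rose and 3 fell. Fbp1, fructose bisphosphatase of gluconeogenesis, lay between 1367 and 1963 CPM in Vec and between 732 and 1086 CPM in shRNA mice (−0.81, edgeR adjusted p = 0.00035), while the liver glycogen phosphorylase gene Pygl rose (0.42, edgeR adjusted p = 0.0103). The genes of glycogen-targeting subunits split: Ppp1r3b (0.44) and Ppp1r3c (0.85) rose and Ppp1r3g fell (−1.64, edgeR adjusted p = 0.0362). Their calls changed in 10, 6 and 9 of 18 alternatives, in that order. Of 18 insulin and FOXO genes only Inhbe, an activin subunit, was called (−0.64). Of 39 drug metabolism genes, 5 fell and 4 rose, the latter including Cyp2b10 (0.87) and Gsta1 (1.16). Of 18 bile acid genes 2 rose (Slc51b and Slco1a4) and 1 fell (Slco1b2), and of 21 NRF2 target genes Gsta1 rose and Taldo1 fell. Among 18 clock genes, Arntl, the BMAL1 gene, was at 1.85, 1.74, 5.30, 5.42 and 3.72 CPM in Vec and at 5.53 to 10.51 CPM in shRNA mice (1.10, edgeR adjusted p = 0.0229), and Cry1 rose (0.52), while Dbp (−1.34) and Nr1d1 (−1.07), output genes that peak at other hours, fell. Without shRNA replicate 4 the clock list counted 1 lower and none higher, and the glucose list 2 lower and 1 higher. All 4 clock genes passed with the same sign in the BBR-treated mice. The hour at which each mouse was killed is not given in the sources used here, and its part in these values was not tested.

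Proliferation genes were called in part, beside 7.91% of all genes called lower and 5.28% called higher. Of 29 cell cycle genes, 4 fell (Mcm2, Cdk1, E2f1 and Mcm7) and the inhibitor gene Cdkn1a, which encodes p21, rose (1.29, edgeR adjusted p = 0.0143). Mcm2, a helicase subunit, was at 15.6 and 9.56 CPM in Vec replicates 3 and 5 and at 3.96 to 6.49 CPM in the other Vec mice, against 2.17 to 4.75 CPM in the shRNA mice. Without these 2 Vec mice only Cdkn1a was called and the median moved from −0.72 to 0.01. Mcm2 then had −0.81 (edgeR adjusted p = 0.087), E2f1 −0.52 (edgeR adjusted p = 0.054, against −0.67 with all mice), Cdk1 −0.45 and Mcm7 −0.34, all with the same sign. Cdk1 had a log2 fold change of 1.26 in the BBR-treated mice, and the difference between the 2 effects passed the interaction test (edgeR adjusted p = 0.0277).

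Markers of hepatocytes and of other cells are given beside the same shares of all genes, 7.91% called lower and 5.28% called higher. The summed FPKM of 18 hepatocyte identity genes was 75750 to 84830 in Vec and 72910 to 80640 in shRNA livers, and 3 of these genes (Ahsg, Serpina1a and Cebpa) were called lower. The summed FPKM of 15 endothelial markers was 65.2 to 84.6 in Vec and 92.4 to 115 in shRNA livers, without overlap, and 4 of them were called higher and none lower: Kdr, the VEGF receptor (0.55), and the sinusoidal genes Stab2 (0.64), Clec4g (0.47) and Gpihbp1 (0.49). Their median log2 fold change was 0.32, whereas in the BBR-treated mice it was −0.08 and none of them was called. Of 21 macrophage and Kupffer cell markers, 2 fell (Cd68 and Gpnmb, median −0.49) and none did without Vec replicates 3 and 5, with summed FPKM of 169 to 387 in Vec and 211 to 297 in shRNA livers. Of 19 stellate cell and fibroblast markers only Col1a1 was called (−1.12, edgeR adjusted p = 0.0303), and without Vec replicates 3 and 5 none was called. Their summed FPKM was 153 to 254 in Vec and 209 to 235 in shRNA livers. Single calls among 10 cholangiocyte markers (Krt8, −0.58) and 14 lymphocyte and neutrophil markers (Nkg7, −1.83) were both lower. All 14 of the latter had negative values (median −0.89, and −0.73 without Vec replicates 3 and 5), with summed FPKM over 20 genes of 3.07 to 44.7 in Vec and 4.29 to 23.5 in shRNA livers, and in the BBR-treated mice their median was 1.56 and 3 were called higher. None of 6 erythroid markers was called, with summed FPKM of 828 to 1962 in Vec and 564 to 1157 in shRNA livers. The defining adipocyte genes were at or near 0, with at most 0.039 FPKM of Adipoq and 0 FPKM of Lep in every mouse. Retn had at most 0.264 FPKM in Vec and 0.052 FPKM in shRNA livers. The 3 genes of the adipocyte list that were tested all had negative values (median −1.31), and 2 of them were called. The 2 called genes of the adipocyte list, Car3 (−1.31) and Cyp2e1, are also expressed by hepatocytes. Beside these lists, the part of a change in cell number was not tested.

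The decreases that were largest relative to their error lay outside these lists for the most part. The 20 lower genes with the smallest p-values among those without overlap and with a mean count of at least 50 were picked after their values had been seen. Cd1d1, which presents lipid antigens to NKT cells, was at 202, 213, 218, 212 and 230 CPM in Vec and at 88.6, 90.5, 88.3, 78.2 and 95.0 CPM in shRNA mice, a log2 fold change of −1.29 (SE 0.11, edgeR adjusted p = 2.95e-07). The 2 groups are each tight and lie far apart. Grina, a membrane protein gene of the TMBIM family, lay between 145 and 177 CPM and between 62.1 and 88.9 CPM (−1.07, edgeR adjusted p = 1.34e-06), and Atp6v0a1, a subunit of the vacuolar proton pump, between 45.2 and 52.5 and between 20.2 and 28.8 CPM (−0.999, edgeR adjusted p = 1.13e-05). Grb2, the adaptor of receptor tyrosine kinases, had −0.60, Gjb2, connexin 26, −0.80, Ide, the insulin-degrading enzyme, −0.70, Mtch1, a mitochondrial outer membrane protein gene, −0.91, and Tex2, −0.66. Of the 20 genes, 18 were also called lower in the BBR-treated mice, the exceptions being Rmdn3 (edgeR adjusted p = 0.0595) and Syngr2 (edgeR adjusted p = 0.157). Beside them, 4.82% of all genes and 26.2% of the genes called lower here were called lower there. The 20 were picked by small p-values, and the spread behind these was estimated with the BBR-treated mice included.

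Because the vectors differ in the shRNAs they carry, the 3′ untranslated regions (UTRs) were searched for short matches to both strands of each hairpin. A longest 3′ UTR could be taken from GENCODE M21 for 12245 of the 12342 genes tested. Each strand of 21 bases gives 15 windows of 7, so that the 4 guides gave 60 windows and the 4 passenger strands another 60, and a gene was counted when the complement of the window, on the transcript strand alone, occurred in its 3′ UTR. Windows of 1 strand overlap and are not independent. For each window the share of genes with a match among the lower genes was divided by that among all genes. The median of this ratio was 0.866 over guide windows and 0.799 over passenger windows. The lower genes had shorter 3′ UTRs than all genes (median 871 bases, against 1155 for all genes and 1554 for the higher genes). The ratio was above 1.2 in 4 guide windows and in none of the passenger windows, where the highest was 0.947. For the higher genes, with their longer 3′ UTRs, the same ratio was above 1.2 in 19 guide and 31 passenger windows, so a ratio of this size is not rare in itself. For the genes called lower in the BBR-treated mice it was above 1.2 in 30 of the 60 guide windows. There it was above 1.2 in many passenger windows too, so that count was not particular to the guides. Examples are 1.46 for the passenger window from base 1 of shRNA1, and 1.39 and 1.30 for those from base 3 of shRNA2 and shRNA4. The highest passenger value was 1.464, from base 7 of shRNA3. The guide windows from base 4 of shRNA2, shRNA3 and shRNA4 had 1.695, 1.505 and 1.512 there, and that from base 2 of shRNA2 had 1.524.

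Of the 4 guide windows with a ratio above 1.2 for the genes called lower in the vehicle mice, 3 start at base 4. They are in shRNA2, shRNA3 and shRNA4. AATGCCA (shRNA2) was in the 3′ UTR of 16.05% of the lower genes, 13.2% of the higher genes and 12.2% of all genes. GGACAAA (shRNA3) was in 13.1%, 9.05% and 9.96% of them, and GGTGACT (shRNA4) in 13.99%, 12.4% and 10.7%. The remaining window, CAATGCC, starts at base 5 of shRNA2. The window from base 4 of shRNA1, TTATTAT, gave 10.7% of the lower genes, 21.6% of the higher genes and 16.8% of all genes. The windows from base 2 to base 8 had ratios of 0.676 (shRNA1), 1.05 (shRNA2), 0.695 (shRNA3) and 0.808 (shRNA4). These bases are the usual seed if the guide starts at its designed 5′ end, which was not measured. The windows were counted with no test, the 3 were singled out after their values were seen, and a match is a stretch of letters and not evidence of binding.

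**Figure D4:**
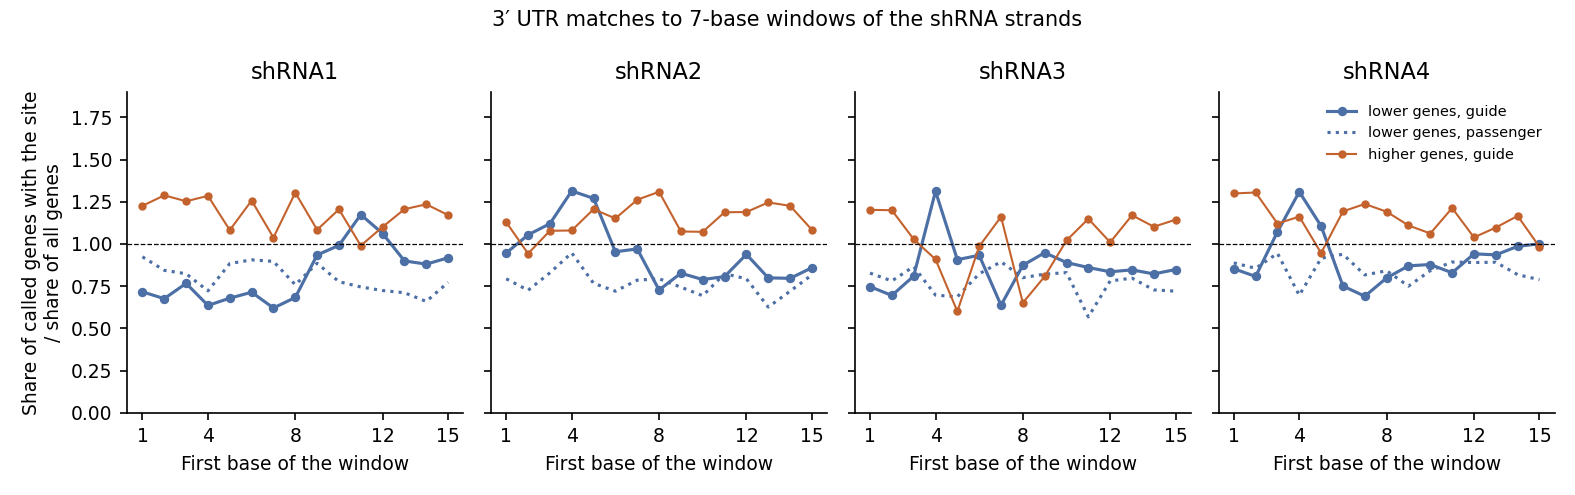
For each shRNA, the x axis gives the first base of a 7-base window from the 5′ end of the designed guide or passenger strand. The y axis gives the share of called genes with a match in the 3′ UTR divided by the share of all genes. The lower genes peak at base 4 of the guide in shRNA2, shRNA3 and shRNA4, and the dotted passenger lines stay below 1, while the orange line of the higher genes is above 1 in most windows of every shRNA.

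Matches from base 4 to any of shRNA2, shRNA3 and shRNA4 were in 27.3% of all genes, 35.1% of the lower genes and 29.3% of the higher genes. Among the lower genes with an adjusted p under 0.001 the share was 45.3% (82 of 181), against 25.8% of the higher genes under that limit (17 of 66), and among the 20 genes with the smallest p-values it was 75.0% (15 of 20). Among the 255 genes with a 3′ UTR that were called lower with and without BBR it was 47.8%. These sets of lower genes are part of those in which the 3 windows were singled out, so their shares are no independent test of the windows. The 20 genes also had longer 3′ UTRs (median 1430 bases) than the lower genes (871) and all genes (1155). Matches from base 2 to the same 3 guides were likewise in a larger share of the 20 than of all genes (32.45%). Since longer 3′ UTRs hold more matches by length alone, the genes were also divided into 4 bins of like size by 3′ UTR length. In the bin of the shortest (up to 493 bases), 20.5% of the 166 genes with a match were called lower, against 9.15% of the 2897 without. In the next bins the shares were 16.9% against 7.46%, 12.2% against 5.63% and, for the longest, 6.14% against 4.22%. The shares called higher in the same bins were 3.61% against 3.45%, 3.29% against 4.44%, 6.03% against 7.53% and 6.49% against 6.58%.

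In the BBR-treated mice, the shares called lower in the 4 bins were 7.23%, 8.33%, 8.56% and 6.44% with a match and 2.49%, 3.85%, 4.64% and 5.92% without. For the windows from base 2 of the same 3 guides, the shares called lower in the vehicle mice were 10.3% against 9.72% in the first bin and 9.45% against 8.95% in the second. Over all 4 bins, the median log2 fold change was −0.0086 with a match from base 4 and −0.0092 without, and in the first bin it was −0.14 and −0.08.

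**Figure D5:**
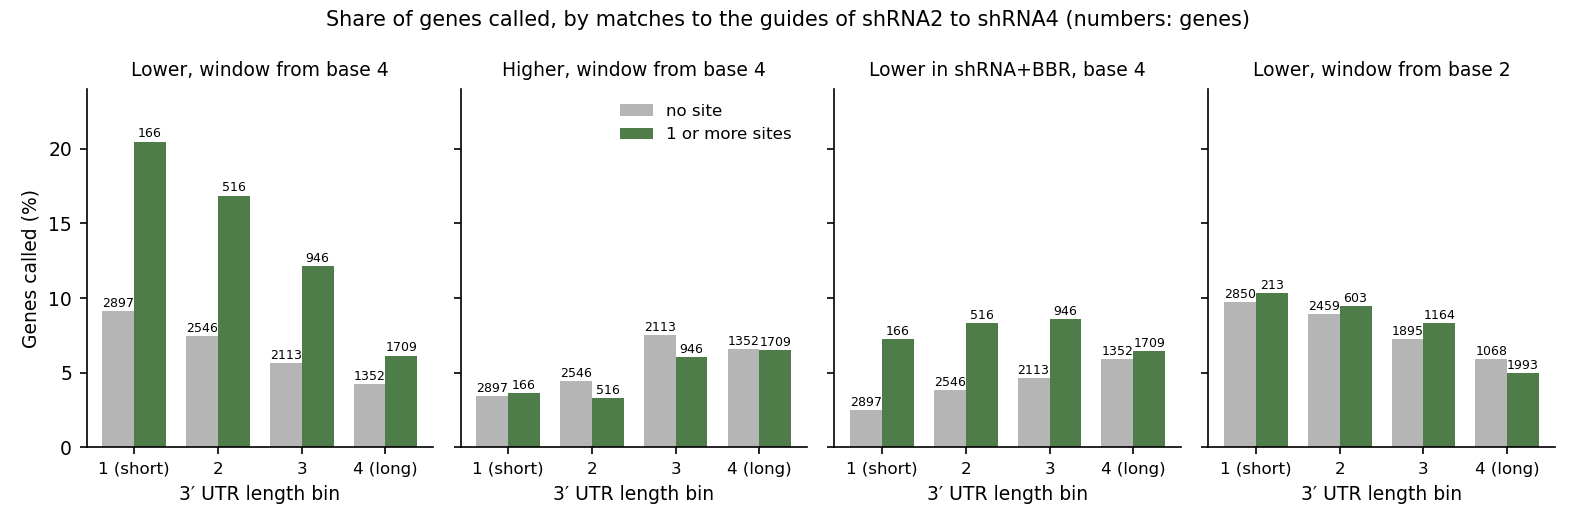
The bars give the percent of genes called in each bin of 3′ UTR length, for genes without (grey) and with (green) a match to the guides of shRNA2 to shRNA4, with the number of genes above each bar and an axis from 0. With the window from base 4 the green bars for lower genes are above the grey ones in every bin (20.5% against 9.15% in the first), and for higher genes they are 3.61% against 3.45% in the first.

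Some of the matches are shown here with their surroundings, in genes among the 20 and with the 7 bases in capitals, since these mRNAs had the decreases with the smallest p-values. Positions are on GRCm38, 5′ to 3′ on the strand of the gene.

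Pdia4, shRNA2 window: attttgttAATGCCAcctcatgct

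Cd1d1, shRNA2 window: ttgttctaAATGCCAtaatgacca

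Cd1d1, shRNA4 window: tttttcaaGGTGACTagaaaaatg

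Grina, shRNA2 window: ggcatgacAATGCCAtctgtgctt

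Tex2, shRNA4 window: ctgcatctGGTGACTagtatctgg

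Chmp1a, shRNA4 window: aaactcctGGTGACTttgttcttt

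Emc7, shRNA3 window: ctcttggaGGACAAAttgtctttg

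The Pdia4 stretch is at chr6:47796357-47796380 on the minus strand. Those of Cd1d1 are at chr3:86995920-86995943 and chr3:86996207-86996230 on the minus strand, and that of Grina is at chr15:76249414-76249437 on the plus strand. The Tex2 stretch is at chr11:106503404-106503427 and the Chmp1a stretch at chr8:123204685-123204708, both on the minus strand, and the Emc7 stretch is at chr2:112468723-112468746 on the plus strand. In Grina the run of letters shared with the shRNA2 target extends to 11 bases, and in Chmp1a that shared with the shRNA4 target extends to 10. Chid1, Cltb, Dpagt1, Pla2g12a and Syngr2 were the 5 of the 20 without a match to these 3 guides, and Pparg itself is targeted in its coding sequence. Of the 12 lower genes with the largest change, Pdia4 alone held such a match, and of the 12 higher genes Cish and Adamts7 did. Of all called genes that the naming rule covers, 21 of 90 lower and 8 of 36 higher ones held such a match. Both shares were below the 27.3% of all genes with a match, so a match in the genes listed next is not unusual. Among the lower ones these were Pdia4, Il1rn, Fbp1, Cyp2e1, Slc27a4, Prlr and Cyp4a12b (shRNA2), Aqp9, Vnn1, Abhd5, Mogat2, Tbx3, Dbp, Cdk1 and Cyp2c38 (shRNA3), Notum, Rhbg, Lect2 and Elovl5 (shRNA4) and Angptl4 and Slco1b2 (shRNA3 and shRNA4). Among the higher ones they were Cish, Adamts7, Cyp4a31, Stab2, Gpihbp1, Ppp1r3c, Serpina3m and Abcd2. Cidea, Mogat1, Pltp, Fitm1, Glul and Hp held none of these matches. Long matches were rare: 7 genes other than Pparg shared a run of at least 14 bases with a guide's target stretch, the longest being 16 bases in Mtfmt (log2 fold change 0.01, edgeR adjusted p = 0.964), and of the 7 only Npc1, with 15 bases, was called lower (−0.45, edgeR adjusted p = 0.0023). The sequence of the non-targeting shRNA was not used here, and what these matches have to do with the decreases was not tested.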

How the data were processed

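Liver RNA was measured by poly(A) RNA sequencing in 20 mice, 1 library per mouse. The authors deposited, per library, a count per gene, some of which are not whole (expected counts is the unit assumed here), and FPKM values (scaled to transcript length and sequencing depth). The build is mm10 in the submitters' processing notes, while the aligner, the counting program and the annotation are not given in the sources used here. The mean ± SD and the ranges of FPKM are given for levels compared between genes and for summed markers, and were not tested.

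Expected counts were rounded to whole numbers and tested with edgeR 4.0.16 in R 4.3.3 (filterByExpr with a minimum count of 10 and a minimum total of 15, TMM scaling, glmQLFit and glmQLFTest with 1 mean for each of the 4 groups). P-values were adjusted by the Benjamini-Hochberg method over all 12342 of 22298 listed genes that passed, with a threshold of 0.05. All 4 groups shared 1 estimate of the spread. CPM values use the TMM-scaled totals, and SE is that of the log2 fold change. Totals of 17432903 to 24823023 counts set a floor of 3 counts at 0.121 to 0.172 CPM, which covers counting error only. The script was tested on simulated counts. The labels give a separate mouse for each sample, and no 2 libraries of a group agreed within sampling noise (chi-square per gene 18.1 to 185).

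Named genes were Pparg, the 12 genes with the largest absolute log2 fold change in each direction among those called, without overlap between the CPM of the 2 groups and with a mean count of at least 50, the called members of the lists described, and Cidea, Cidec, Plin2, Hilpda, Fabp4, Cd36, Mogat1, Plin4, Pltp, Scd1, Fasn and Ppara whatever their result. The comparison, the 33 gene lists and the tests were chosen with earlier results of these data known. Alternatives were RLE scaling, DESeq2 1.42.0, limma-voom (limma 3.58.1), no filter, at least 10 counts in every library, the 2 groups alone, a replicate block and leaving out each mouse in turn. A fit without Vec replicates 3 and 5 was added after seeing the data. These mice had the highest Vec values of several lipid genes, so results of this fit for those genes are partly set by that choice. Sequences of 3′ UTRs, gene positions and shRNA targets were taken on GRCm38, the assembly that mm10 names, with the GENCODE M21 annotation, and the shRNA sequences from the study's supplementary tables. Ppard, Rxra and the 20 lower genes with the smallest p-values were chosen after their values were seen. Results for some genes are not reported here.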

Additional observations from a re-analysis of the deposited data

Results flagged for a closer look

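Among 72 groups of 5 mice examined for a single mouse far from the others (Dixon's test, critical value 0.71), 6 had one, and chance gives about 1 in 20. Lad1 was lowest in Vec replicate 2, at 1.93 CPM. Mup21 was highest in shRNA replicate 1, at 2.92 CPM, as were Fitm1 at 18.05 CPM, Scd1 at 25400 CPM and Fasn at 1100 CPM. Cidec was highest in Vec replicate 3, at 130.0 CPM.

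The effect of the vector differed between BBR-treated and vehicle mice in 18 genes by the edgeR interaction test. Of the genes named by size, Smoc2 had a difference of −1.92 (log2, edgeR adjusted p = 0.0473), with an increase under both treatments. Mup21 had a difference of 1.73 (log2, edgeR adjusted p = 0.0473).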

How the results depend on the processing

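The number of genes called, 1628 with all mice, ranged from 1015 (without shRNA replicate 4) to 2284 (without Vec replicate 4) when 1 mouse was left out. All 12 higher and all 12 lower genes named by size were called under every alternative in which they were tested (Unc79, Prom1 and Slc51b in 17 of 18). With the 10 vehicle libraries alone in the fit, 1149 genes were called. The interaction, with 18 genes, gave 330 genes by DESeq2, 11 by limma-voom, 331 without Vec replicates 3 and 5 and 6 to 122 when 1 mouse was left out. The called members of all lists, 108, ranged from 63 to 137 when 1 mouse was left out. With a replicate block 1495 genes were called (629 higher, 866 lower). The numbers are no pairing, since same-numbered mice had correlations of deviations of −0.133 to 0.0194. The direction turned without Vec replicates 3 and 5 for Cidec (0.63), Plin2 (0.15), Hilpda (0.14) and Fasn (1.42), and by limma-voom for Fasn (0.23). When 1 mouse was left out, Hilpda ranged from −0.36 to 0.04, Scd1 from −0.28 to 1.01, Fasn from −0.76 to 0.29 and Ppara from −0.13 to 0.46. The cause was not tested. Of 626 values of single genes under the alternatives, 576 kept their direction and side of the threshold, 28 lost the call, 9 gained it and 13 turned.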
